A study of Mus musculus with 6 samples.

Results

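The p53 target and apoptosis genes are a fixed list of 37 mouse genes. It holds 23 genes for p53, its inhibitors and its targets, and 14 genes of the Bcl2 family and the caspases. A gene was measured by the probe sets that the platform annotation assigns to it alone, and where a gene had several, by the brightest on average. This gave a level for 32 of the 37 genes, 19 in the p53 list and 13 in the Bcl2 and caspase list, among 22180 genes measured in all. Trp53, Bax and Gdf15 had no such probe set and were not analysed here. Gadd45a and Ddb2 were covered only by probe sets shared with another gene, which are described apart from the rest.

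The cells were mouse inner medullary collecting duct (IMCD) cells, a kidney epithelial line. They had been transduced with a bicistronic lentivirus carrying GFP and integrin-linked kinase (ILK), an adaptor of integrin adhesion sites. In the first group, T173I, the vector encoded the missense variant ILK-T173I (3 arrays). The second group, wild type, received the same kind of vector with wild-type ILK (3 arrays). Both groups were stably transduced and grown in serum-containing DMEM:F12. Both also received EGF (20 ng/ml, 15 minutes) and a further incubation of 1 hour. No group without a vector or without EGF is used here, so the contrast is between the 2 forms of ILK after EGF. The labels name the 3 arrays of a group biological replicates. The labels do not say how many lines stand behind them, so line and variant cannot be told apart, and p-values measure the spread between these arrays.

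p53 is a transcription factor that is kept scarce by Mdm2, an E3 ubiquitin ligase, and by the Mdm2 relative Mdm4. When DNA damage or other stress relieves that block, p53 induces genes that halt the cell cycle, restrain growth, repair DNA or kill the cell, and it induces Mdm2 itself, which closes a feedback loop. Death is carried out largely through the Bcl2 family, in which BH3-only proteins release Bax, Bak1 and the like from anti-apoptotic members so that the outer mitochondrial membrane is permeabilised and caspases are activated. Growth factor signalling reaches the same genes, for example by lowering the BH3-only protein Bcl2l11 through ERK and AKT, and Plk2, Plk3, Btg2 and Mcl1 are also quickly induced by growth factors in many cells.

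RefSeq promoters (build GRCm38.p6) were searched for the 10-base p53 consensus decamer, of which a full p53 site holds a pair; the consensus is its own reverse complement, so 1 search covers both strands. The window ran from 250 bases before to 50 bases after a gene's start. Of the 30 members in the promoter table, 9 had a decamer (30%), against 9.55% of all 27025 genes there. The 9 were Trp53, Mdm2, Ccng1, Gadd45a, Sesn1, Ei24, Aen, Polk and Bax, so 8 of 17 were in the p53 list (47.1%) and 1 of 13 in the Bcl2 and caspase list (7.69%). Ddb2, Zmat3, Xpc, Rrm2b, Trp53inp1, Pmaip1 and Perp were not searched. Most of the genes are on the list because p53 is known to induce them. A match describes the letters only. Of the members with a decamer, 4 had a positive difference, 2 a negative one and 3 no level. The 250 bases before the start are shown for Ccng1 and Mdm2, which have a decamer and were higher in T173I at an unadjusted p under 0.05. They are also shown for Sesn1, which has a decamer and the opposite sign, and for Bok, a Bcl2 family gene that was higher and has none. Plk3, Phlda3, Bak1 and Bcl2 were also higher at an unadjusted p under 0.05 and have no decamer either. The decamer is in capitals; it begins 185 bases before the start in Ccng1 and 186 in Mdm2. Sesn1 has a further annotated start whose window holds no decamer.
Ccng1, chr11:40755287-40755536, minus strand: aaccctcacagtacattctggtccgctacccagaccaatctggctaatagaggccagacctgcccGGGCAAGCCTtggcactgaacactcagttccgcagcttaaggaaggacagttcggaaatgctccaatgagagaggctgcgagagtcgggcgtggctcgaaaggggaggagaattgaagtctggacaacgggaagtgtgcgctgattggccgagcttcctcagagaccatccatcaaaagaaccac
Mdm2, chr10:117710759-117711008, minus strand: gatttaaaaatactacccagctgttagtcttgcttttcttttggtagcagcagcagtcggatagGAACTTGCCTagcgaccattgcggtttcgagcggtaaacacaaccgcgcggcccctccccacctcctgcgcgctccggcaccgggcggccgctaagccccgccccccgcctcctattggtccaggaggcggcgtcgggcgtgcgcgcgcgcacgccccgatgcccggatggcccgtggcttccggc
Sesn1, chr10:41887189-41887438, plus strand: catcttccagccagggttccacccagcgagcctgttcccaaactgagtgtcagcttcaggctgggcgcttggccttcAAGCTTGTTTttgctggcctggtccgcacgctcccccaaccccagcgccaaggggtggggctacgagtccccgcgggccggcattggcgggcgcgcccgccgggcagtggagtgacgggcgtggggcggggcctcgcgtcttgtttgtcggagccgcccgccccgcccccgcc
Bok, chr1:93685325-93685574, plus strand: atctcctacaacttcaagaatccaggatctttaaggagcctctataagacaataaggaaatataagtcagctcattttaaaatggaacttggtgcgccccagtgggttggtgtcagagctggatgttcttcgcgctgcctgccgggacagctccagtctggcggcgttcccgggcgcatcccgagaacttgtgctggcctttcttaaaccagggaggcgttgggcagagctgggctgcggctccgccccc

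The deposited values are log2 signals that the authors made with RMA, so every difference below is in log2 units and a difference of 1 is a 2-fold change. Array medians were 5.45 to 5.52. T173I arrays resembled each other less (r of 0.964 to 0.983 over genes) than wild-type arrays did (0.989 to 0.993). The 3 probe sets that list Ilk also list Taf10 or Rrp8, and their differences were -0.11 to 0.15, so the amount of ILK RNA could not be compared. Of 18 epithelial and collecting duct markers, 14 were bright enough to be tested, Cdh1, Epcam, Krt8 and Krt18 among them. Aqp3, Aqp4, Scnn1b and Elf5 were too dim. Aqp2 (5.97 to 6.25), Scnn1a (6.22 to 6.30) and Hsd11b2 (6.08 to 6.29) lay not far above the brightness filter of 5.37. Of the 14 tested, 6 had positive and 8 had negative differences. The mean of the 18 was 7.41 to 7.71 on the T173I arrays and 7.65 to 7.78 on the wild-type arrays. At an unadjusted p under 0.05, 3 of the 14 were higher in T173I (21.4%, against 4.88% of all genes tested). A further 2 were lower (14.3%, against 5.31%). The higher ones were Krt8, Krt18 and Krt7 (by 0.64, 0.44 and 0.41). Gata3, Scnn1g and Cldn8 had differences of -0.78, -1.19 and -2.13. Cldn8 was at 4.23 and 4.97 on T173I replicates 2 and 3, under the brightness filter, so its difference is no measure of size. T173I replicate 1 lay within the wild-type range for Cldn8 (6.93) and for Scnn1g (7.64). The part of these markers in the results was not tested. Of 8 endothelial and leukocyte markers only Cd68, a lysosomal protein of macrophages, was bright enough, at 8.40, 9.08 and 9.63 on the T173I arrays and 7.47, 8.08 and 8.26 on the wild-type arrays. The mean of those 8 markers was 5.35 to 5.51 on the T173I arrays and 5.17 to 5.23 on the wild-type arrays. Most of this came from Cd68, with a difference of 1.10. The other markers, all too dim to test, had differences from -0.10 (Cd3e) to 0.20 (Adgre1). Ptprc, the general leukocyte marker, was at 3.55 to 3.81 on all 6 arrays. The part of these differences in the results was not tested. Fibroblast markers averaged 5.11 to 5.49 on T173I arrays and 5.07 to 5.38 on wild-type arrays. Among them Postn was at 8.05, 5.49 and 4.30 on T173I replicates 1, 2 and 3, and at 4.65 to 6.26 in wild type. The part of Postn in the results was not tested. Proximal tubule markers averaged 5.15 to 5.38 on T173I arrays and 5.28 to 5.32 on wild-type arrays.

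No gene of the list passed limma's test over all 6 arrays at an adjusted p under 0.05, and 0% of all 13308 genes tested did. At an unadjusted p under 0.05, 8 of 32 members were higher in T173I (25%), against 4.88% of all genes tested. These were Mdm2, Ccng1, Plk3, Perp and Phlda3 of the p53 list and Bak1, Bok and Bcl2 of the other. In bulk RNA, fewer cells of a kind and less RNA per cell cannot be told apart. Casp12 was the only lower member (3.12% of members, against 5.31% of all genes tested). The list was assembled with earlier results of these arrays known, Ccng1, Perp, Plk3 and Mdm2 included, so its share of higher genes is not independent evidence. Ccng1, Plk3, Perp, Bak1 and Bok had an unadjusted p under 0.05 in all 15 settings tried, the 6 fits with an array left out included. These settings reuse the same 6 arrays and are not independent of one another. The matching share of all genes is not given here.

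**Figure D1:**
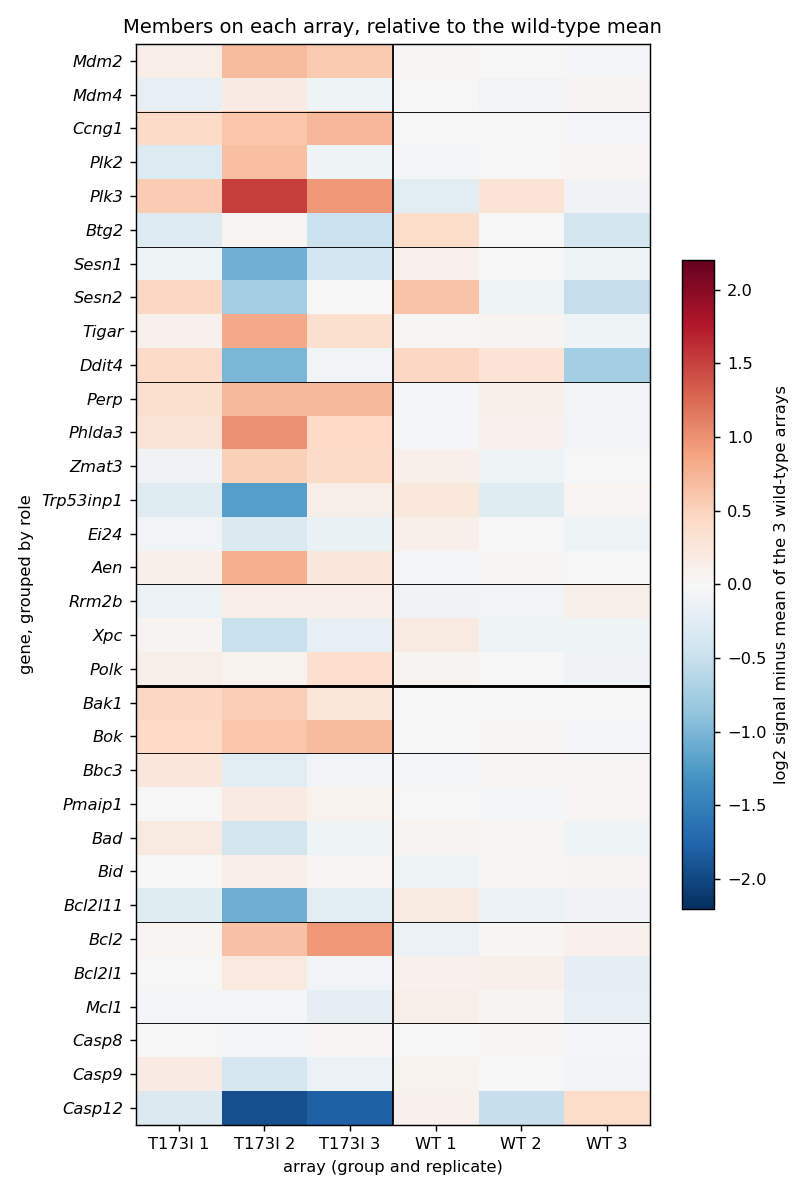
Log2 signal of the 32 measured members on each array (columns) minus the mean of the 3 wild-type arrays; rows are genes in order of role, with a thick line between the p53 list and the Bcl2 and caspase list. Bok, Bak1, Ccng1, Perp, Plk3 and Phlda3 were raised on all 3 T173I arrays, while the lowest values relative to wild type, in Casp12, Trp53inp1, Bcl2l11, Sesn1 and Ddit4, lay on T173I replicate 2 and, for Casp12, also on replicate 3.

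Neither measured inhibitor of p53 passed the adjusted test; Mdm2 had a positive difference with an unadjusted p under 0.05, which was lost without T173I replicate 3. Mdm2 had log2 signals of 10.98, 11.51 and 11.39 on T173I replicates 1, 2 and 3, against 10.86, 10.82 and 10.79 on the wild-type arrays. All T173I arrays lay above all wild-type arrays, replicate 1 by the smallest step. The difference was 0.47 with a 95% interval of 0.12 to 0.82 (limma adjusted p = 0.449). Mdm4, which binds p53 and blocks its activation domain, was at 8.54, 8.91 and 8.64 in T173I and 8.73, 8.67 and 8.78 in wild type. Its T173I arrays fell on both sides of the wild-type range, and the difference was -0.03 (interval -0.30 to 0.24). Trp53 itself was not measured by a probe set of its own, and its protein, which Mdm2 controls, is not seen by an array.

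Of the 4 measured growth-arrest targets none passed the adjusted test. Ccng1 and Plk3 had an unadjusted p under 0.05, and Plk2 and Btg2 are given beside them without a test between the genes. Ccng1 encodes cyclin G1, which guides protein phosphatase 2A to Mdm2. Its signals were 10.70, 10.88 and 11.01 in T173I and 10.29, 10.29 and 10.26 in wild type. All T173I arrays lay above all wild-type arrays, with an SD of 0.157 in T173I and 0.0172 in wild type (n = 3 each). The difference was 0.59 (interval 0.35 to 0.82), a 1.5-fold change with an adjusted p of 0.43 by limma. Plk3, a polo-like kinase of the stress response, stood at 8.26, 9.23 and 8.65 in T173I and 7.48, 7.999 and 7.63 in wild type. It had the largest positive difference of the 32 members, 1.01 (interval 0.39 to 1.63), or 2.01-fold, and its wild-type arrays also varied (SD 0.268). Plk2, a related kinase, was at 10.61, 11.57 and 10.82 in T173I and 10.86, 10.90 and 10.95 in wild type. Only T173I replicate 2 exceeded the wild-type range for Plk2, the other two lay below it, and the difference of 0.09 became -0.19 without replicate 2. Btg2, an antiproliferative partner of the mRNA deadenylase complex, had a difference of -0.24 with overlapping groups (interval -0.78 to 0.30), which ranged from -0.44 without wild-type replicate 3 to -0.04 without wild-type replicate 1. The probe set shared by Gadd45a and E230016M11Rik was at 9.34 ± 0.214 in T173I and 9.26 ± 0.364 in wild type (SD, n = 3 each).

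The p53 targets that restrain metabolism and growth had differences of both signs, none with an unadjusted p under 0.05. Sesn1 and Sesn2, sestrins that hold back mTORC1 when amino acids are short, are known as stress sensors. Sesn1 was at 8.49, 7.52 and 8.15 in T173I and 8.66, 8.58 and 8.49 in wild type, so that replicate 2 was lowest by far and replicate 1 was equal to the lowest wild-type array. Its difference was -0.52 (interval -1.08 to 0.04), and -0.26 without replicate 2. Tigar, a phosphatase that lowers glycolytic flux, was at 7.75, 8.49 and 8.01 in T173I against 7.68, 7.72 and 7.55 in wild type. Its groups did not overlap and its difference was 0.43 (interval -0.02 to 0.88), and 0.23 without T173I replicate 2. Ddit4, an inhibitor of mTORC1 also induced by hypoxia and by the integrated stress response, was at 9.14, 7.71 and 8.66 in T173I and 9.16, 9.01 and 7.98 in wild type. Sesn2 shared this pattern of wide spread in both groups, with 8.60, 7.38 and 8.13 in T173I and 8.77, 8.04 and 7.61 in wild type. For both genes the range within each group exceeded 1 log2 unit. The difference was -0.21 for Ddit4 and -0.11 for Sesn2, and the sign turned when T173I replicate 2 or wild-type replicate 1 was left out.

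Of the 6 effectors that act on cell death and survival none passed the adjusted test, and Perp and Phlda3 had an unadjusted p under 0.05. Perp is a tetraspan membrane protein of desmosomes and a p53 and p63 target. It had 9.72, 10.09 and 10.09 in T173I and 9.32, 9.48 and 9.32 in wild type. The groups did not overlap and the difference was 0.59 (interval 0.30 to 0.89), or 1.51-fold. Phlda3, a pleckstrin-homology protein that competes with AKT for membrane lipids, was at 7.80, 8.53 and 7.95 in T173I and 7.48, 7.62 and 7.46 in wild type. Its difference of 0.57 (interval 0.12 to 1.03) was 0.35 without T173I replicate 2, which carried the highest value. Aen, an apoptosis-associated nuclease, was at 7.64, 8.30 and 7.77 in T173I and 7.49, 7.54 and 7.53 in wild type, again without overlap, with a difference of 0.38 (interval -0.03 to 0.79), and 0.18 without T173I replicate 2. Zmat3, a zinc-finger RNA-binding protein, had a difference of 0.29, with T173I replicate 1 (8.06) inside the wild-type range of 8.04 to 8.24. The difference was 0.17 without T173I replicate 2 and 0.47 without replicate 1. A dimmer probe set shared by Zmat3 and 4930429B21Rik had a difference of -0.08, with means of 6.62 in T173I and 6.70 in wild type. Trp53inp1, a stress protein of p53 activation and autophagy, and Ei24, a membrane protein of the endoplasmic reticulum, had differences of -0.45 and -0.18, both with overlapping groups. Trp53inp1 was at 6.96 on T173I replicate 2, with 7.90 and 8.30 on replicates 1 and 3 and 7.90 to 8.40 in wild type. Its difference was -0.07 without replicate 2 and -0.04 with array weights. Without replicate 2 that of Ei24 was -0.10.

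The 3 measured DNA repair targets had differences between -0.21 and 0.19. Polk, a DNA polymerase that copies past lesions, had 7.21, 7.17 and 7.46 in T173I and 7.15, 7.09 and 7.01 in wild type. The groups did not overlap, by a gap of under 0.02, and the difference was 0.19 (interval -0.05 to 0.44), and 0.10 without T173I replicate 3. Rrm2b, the p53-inducible subunit of ribonucleotide reductase, had a difference of 0.06, and Xpc, which recognises damage for nucleotide excision repair, of -0.21; the groups overlapped for each, and the difference of Xpc was -0.06 without T173I replicate 2. The probe set shared by Ddb2, a damage-binding protein, and Acp2 was at 7.72 ± 0.476 in T173I and 8.07 ± 0.0978 in wild type (SD, n = 3 each), with the lowest value, 7.19, on T173I replicate 2.

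**Figure D2:**
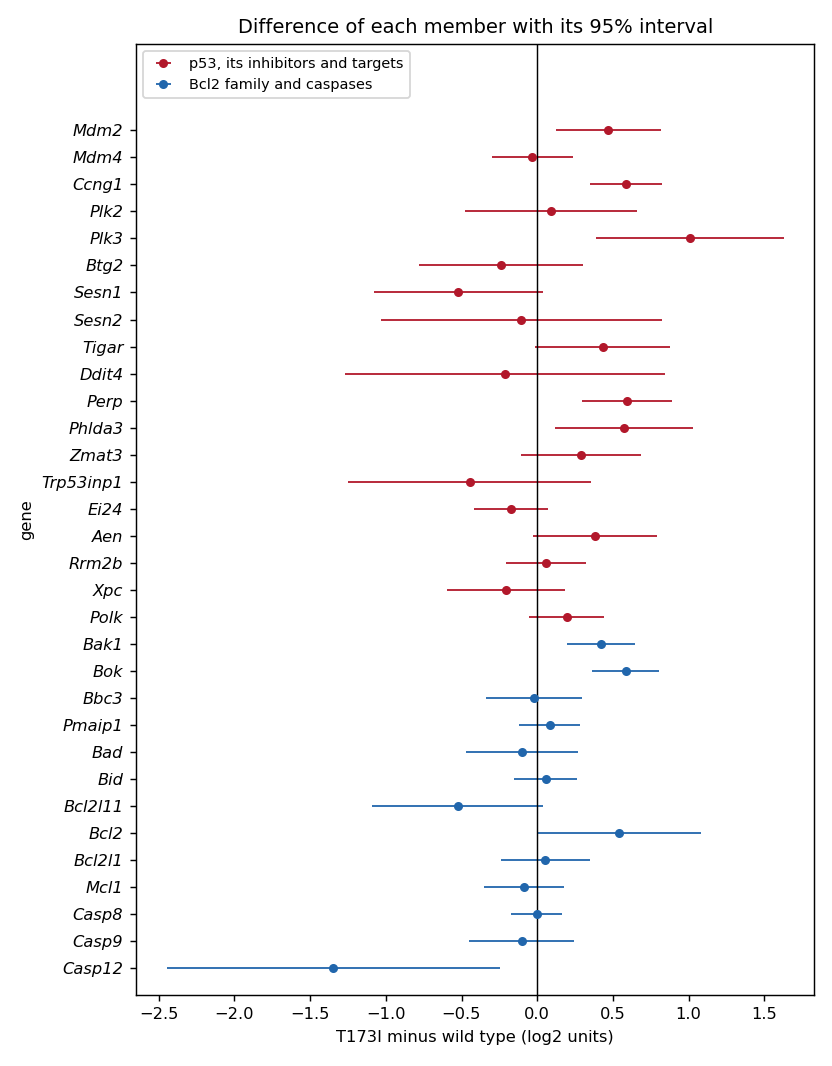
Difference between T173I and wild type in log2 units (points) with its 95% interval from limma (bars) for the 32 measured members, in order of role from top to bottom. Intervals clear of 0 to the right belong to Mdm2, Ccng1, Plk3, Perp, Phlda3, Bak1, Bok and, barely, Bcl2, and to the left to Casp12.

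In the Bcl2 family, both measured pore formers had positive differences with an unadjusted p under 0.05, and neither passed the adjusted test. Bok, a Bax-like protein active at the endoplasmic reticulum and mitochondria, had 9.29, 9.45 and 9.55 in T173I and 8.85, 8.87 and 8.81 in wild type. Its groups were separated by more than the spread of either, and its difference of 0.58 (interval 0.37 to 0.80), or 1.5-fold, carried an adjusted p of 0.43 by limma. Bak1, which sits in the outer mitochondrial membrane, was at 10.50, 10.59 and 10.31 in T173I and 10.05, 10.04 and 10.05 in wild type. The difference was 0.42 (interval 0.19 to 0.65, limma adjusted p = 0.449), and the wild-type SD of 0.0062 was the smallest of any member. Such a small spread rests on 3 arrays, which limits how well it is known.

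The BH3-only genes, which sense stress and trigger the pore formers, had differences of both signs, none with an unadjusted p under 0.05. Bbc3 (Puma) and Pmaip1 (Noxa), the p53-induced members, had differences of -0.02 and 0.08. Bbc3 was at 5.65, 5.15 and 5.34 in T173I and 5.35, 5.42 and 5.43 in wild type, just above the brightness filter of 5.37 on average. Pmaip1 was at 8.36, 8.55 and 8.44 in T173I and 8.35, 8.33 and 8.41 in wild type. Neither gene separated the groups. Bad and Bid, which link growth factor withdrawal and death receptors to mitochondria, had differences of -0.10 and 0.06. Bcl2l11 (Bim) was the only member with every T173I array below every wild-type array, at 7.92, 7.12 and 7.94 against 8.38, 8.05 and 8.11; such a pattern was found in 3.12% of members and 7.95% of all genes tested. Its difference was -0.52 (interval -1.09 to 0.04), -0.25 without T173I replicate 2 and -0.33 with array weights.

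None of the 3 anti-apoptotic genes passed the adjusted test, and Bcl2 alone had an unadjusted p under 0.05. Bcl2 was at 8.56, 9.16 and 9.47 in T173I and 8.39, 8.57 and 8.61 in wild type. T173I replicate 1 lay inside the wild-type range, replicates 2 and 3 above it, and the difference was 0.54 (interval 0.01 to 1.08, limma adjusted p = 0.486). The unadjusted p was no longer under 0.05 with repeated quantile normalization, with the mean of the probe sets, or when any array but T173I replicate 1 was left out. A dimmer Bcl2 probe set went the other way, with 4.61 ± 0.227 in T173I and 4.76 ± 0.0636 in wild type (SD, n = 3 each); the mean of both gave a difference of 0.19. Bcl2l1 and Mcl1 had differences of 0.05 and -0.09, and the dimmer probe set of Mcl1 one of 0.21.

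Casp12 had the lowest fitted difference of all members, with some T173I arrays under the brightness filter. The differences of the initiator caspases were small. Casp8, the initiator of death receptor signalling, varied by no more than an SD of 0.0306 in either group and had a difference of -0.004 (interval -0.17 to 0.17). Casp9, the caspase of the apoptosome, had a difference of -0.10. Casp12, a caspase of the inflammatory group located at the endoplasmic reticulum in rodents, was at 6.66, 5.04 and 5.18 in T173I and 7.07, 6.47 and 7.38 in wild type. T173I replicate 1 fell within the wild-type range and the other two far below it, under the brightness filter. The difference was -1.35 (interval -2.45 to -0.25, limma adjusted p = 0.466). Casp12 passed the filter through the wild-type arrays and T173I replicate 1, so its difference is no measure of size. It was not tested under the stricter filter. Casp4, its neighbour among protein-coding genes in assembly GRCm38.p6 and an inflammatory caspase too, was at 7.64, 6.25 and 6.95 in T173I and 8.13, 7.92 and 8.88 in wild type. All T173I arrays of Casp4 lay below wild type, and its difference was -1.36 (interval -2.29 to -0.42). Its size is not compared with that of Casp12, whose lower T173I arrays lay under the brightness filter. Casp1, next to Casp4 and named after its values were seen, was too dim to test (3.50 to 3.54 in T173I and 3.13 to 3.54 in wild type).

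**Figure D3:**
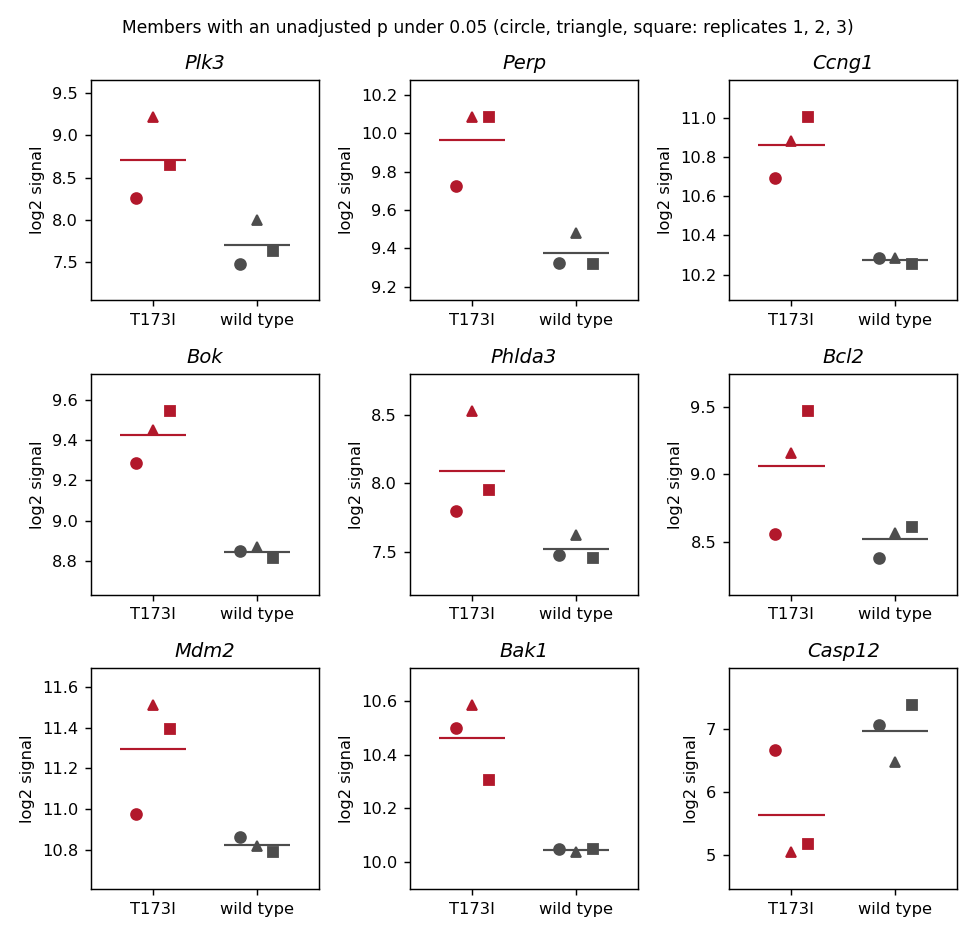
Log2 signal on each array for the 9 members with an unadjusted p under 0.05, T173I to the left and wild type to the right; circles, triangles and squares are replicates 1, 2 and 3, horizontal lines are group means, and each panel has its own axis, which does not start at 0. T173I replicate 1 is the T173I array nearest to wild type in every panel but that of Bak1, where it is replicate 3.

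In the p53 list 5 of 19 members were higher at an unadjusted p under 0.05 (26.3%) and 0 lower. In the Bcl2 and caspase list 3 of 13 were higher (23.1%) and 1 was lower (7.69%). Over all genes tested, 4.88% were higher and 5.31% lower. Both lists were assembled with earlier results of these arrays known, so their shares are not independent evidence. Every T173I array lay above every wild-type array for 8 of 19 p53 genes (42.1%) and 2 of 13 Bcl2 and caspase genes (15.4%), against 7.23% of all genes tested. The 8 were Mdm2, Ccng1, Plk3, Tigar, Perp, Phlda3, Aen and Polk. The median difference was 0.09 over the 19 p53 genes, with 11 positive, and -0.004 over the 13 Bcl2 and caspase genes, with 6 positive, beside -0.01 over all genes tested. Differences ranged from -0.52 (Sesn1) to 1.01 (Plk3) in the p53 list and from -1.35 (Casp12) to 0.58 (Bok) in the other. The median of the p53 list was 0.23 without T173I replicate 1, 0.18 without T173I replicate 2 and 0.21 without wild-type replicate 1. Whether the 2 lists differ was not tested.

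T173I arrays varied more among themselves than wild-type arrays did. The median SD of a member was 0.28 in T173I and 0.09 in wild type, beside 0.16 and 0.10 over all genes tested. T173I replicate 2 was the extreme array: it was the highest of the 6 for 13 of 32 members (40.6%, against 22.6% of all genes tested) and the lowest for 11 (34.4%, against 31.4%). The highest members there were, for example, Plk2, Plk3, Tigar, Phlda3 and Aen, and the lowest Sesn1, Sesn2, Ddit4, Trp53inp1 and Bcl2l11. T173I replicate 1 was outside the wild-type range for fewer, with 13 members above it and 4 below, compared with 18 and 11 on replicate 2 and 15 and 11 on replicate 3. Over all genes tested, 29.1% were above and 24.8% below on replicate 1, 31.2% and 39.8% on replicate 2, and 29.7% and 33.8% on replicate 3. Over the p53 list the median deviation from the wild-type mean was 0.10, 0.18 and 0.15 on T173I replicates 1, 2 and 3, and 0.04, 0.002 and -0.06 on the wild-type arrays.

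Leaving out T173I replicate 1 brought 5 members past the adjusted threshold. With 2 T173I arrays against 3 of wild type, Ccng1 (difference 0.67), Perp (0.71), Mdm2 (0.63) and Bok (0.66) rose and Casp12 fell, with limma adjusted p from 0.036 to 0.0462. Thus 4 of 32 members were higher, against 0.684% of all genes tested, and 1 was lower, against 0.488%. Plk3, whose difference was then larger than those of Ccng1, Perp, Mdm2 and Bok, did not pass, and neither did Phlda3 (adjusted p = 0.107), Bcl2 (0.0609) or Bak1 (difference 0.40, adjusted p = 0.118). Both remaining T173I arrays of Casp12 were below the brightness filter, which it passed through the wild-type arrays, so its call there is no measure of size. The array was left out because the fits without each array were all computed, and leaving out any of the other 5 gave 0 calls. With all 6 arrays the same 5 genes had adjusted p of 0.43 to 0.466.

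**Figure D4:**
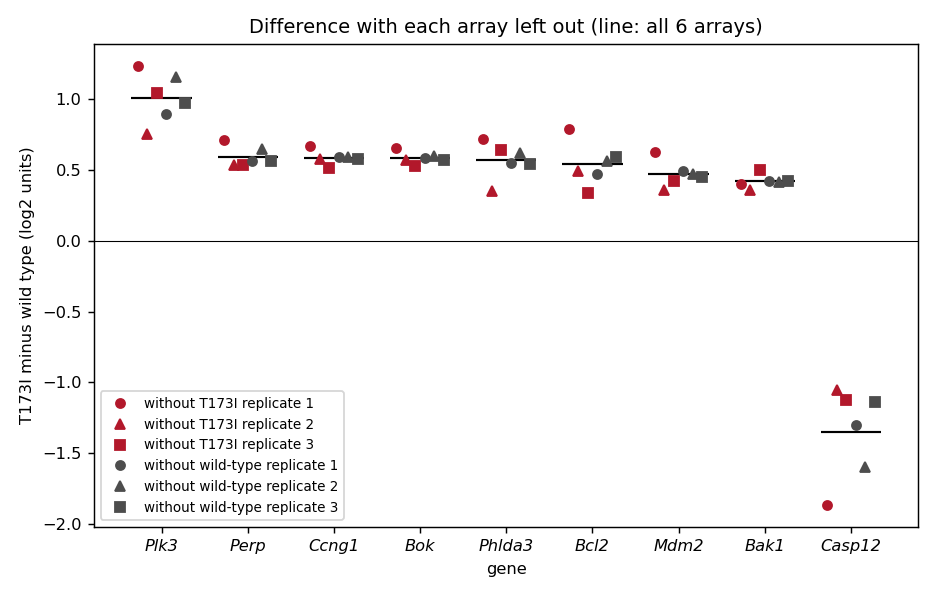
Difference between T173I and wild type in log2 units for the 9 members with an unadjusted p under 0.05, over all 6 arrays (black lines) and with each array left out (red for a T173I array, grey for a wild-type array; circles, triangles and squares are replicates 1, 2 and 3). No difference changes sign, and those of Casp12, Bcl2 and Plk3 move most.

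Other genes of the same pathways were taken from 4 lists that hold none of the 37. Of 34 other p53 targets 28 were tested. An unadjusted p under 0.05 was found for 2 higher genes and 1 lower gene (7.14% and 3.57%, against 4.88% and 5.31% of all genes tested). Positive differences made up 12 of 28 (42.9%, against 47.4%), and the median was -0.02. Tnfrsf10b, a TRAIL death receptor, was at 9.85, 10.60 and 10.45 in T173I and 9.81, 9.83 and 9.78 in wild type, a difference of 0.49 (interval 0.03 to 0.95). It was the only gene of that list past the adjusted threshold without T173I replicate 1 (difference 0.71, limma adjusted p = 0.0348). Fbxw7, a substrate receptor of an SCF ubiquitin ligase, had a difference of 0.25 and Trim32, a ubiquitin ligase, of -0.26, both without overlap of the groups. Ppm1d, a phosphatase that switches the p53 response off, had one of -0.45. Cdkn1a (p21), the classical arrest gene of p53, falls outside the rule for named genes and was chosen after its values were seen. It was at 12.36, 11.44 and 12.05 in T173I and 11.68, 11.88 and 12.10 in wild type, so the groups overlapped and the difference was 0.06 (interval -0.51 to 0.64).

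Among 22 kinases, ligases and cofactors of p53, 3 had an unadjusted p under 0.05. Of these, 2 were higher (9.09%, against 4.88% of all genes tested) and 1 was lower (4.55%, against 5.31%). The lower gene, Rchy1 (Pirh2), encodes a ubiquitin ligase that targets p53 as Mdm2 does. It was at 9.36, 9.11 and 9.27 in T173I and 9.74, 9.77 and 9.82 in wild type, with no overlap and a difference of -0.53 (interval -0.75 to -0.31, limma adjusted p = 0.43), so it lay opposite to Mdm2. The higher genes were Ppp1r13l, an inhibitory ASPP protein of p53, by 0.29, and Trp53bp2, an activating one, by 0.23. Kat5, an acetyltransferase of p53, had a difference of -0.18. In the 5 tested of 13 other Bcl2 family genes, the BH3-only genes Bmf and Bik had differences of -0.64 and -0.25 at an unadjusted p under 0.05 (2 of 5 lower, against 5.31% of all genes tested), and Bcl2l13 and Bnip3 of -0.24 and 0.34. In the 19 tested of 23 other caspases and caspase regulators, 0 were higher, against 4.88% of all genes tested, and 3 lower (15.8%, against 5.31%): Casp4, Birc2 by a difference of -0.45 and Diablo by -0.22. Birc2 and Birc3, neighbouring genes for ubiquitin ligases that hold caspases in check, had differences of one sign, -0.45 and -0.27, and Diablo encodes the mitochondrial protein that displaces such inhibitors from caspases. With all 6 arrays no gene of these 4 lists passed the adjusted threshold.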

How the data were processed

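RNA of 6 arrays was labelled with biotin and hybridised to Affymetrix whole-transcript arrays, per the labels' protocols. The deposited table holds log2 signals of 41345 probe sets; the submitters' processing notes name RMA, and no source used here gives its version. RMA equalises the signal distributions, so a shift shared by most genes would be lost. Probe sets were named through the platform annotation: 23521 had 1 symbol and 1814 several, and none was named from the latter. Genes were ranked by their mean, and the dimmest 40% (mean log2 signal of 5.37 or below) were left out, which left 13308; all 32 measured members remained. T173I minus wild type was fitted with limma 3.58.1 in R 4.3.3 (lmFit, eBayes, two-sided, no covariate), with Benjamini-Hochberg adjustment over all genes tested, a threshold of 0.05 and 95% intervals. The fit was tested on simulated data. Precision is limited by having 3 arrays a group. Promoter sequences are from RefSeq (GRCm38.p6). The members, the lists and the tests were chosen with earlier results of these data known. Named were all members, up to 4 genes with the smallest p of each other list, and genes said to be chosen afterwards. Alternatives changed the filter, prior, normalization, probe set rule, weights, block and arrays used.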

Additional observations from a re-analysis of the deposited data

How the results depend on the processing

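No gene and no member was called under the filter, prior, normalization, probe set, weight and block alternatives; leaving out each array gave 0 to 156 called genes and 0 to 5 called members, the upper values without T173I replicate 1. Members higher at an unadjusted p under 0.05 numbered 7 to 12 in these alternatives and 6 to 11 with an array left out. The background moved as well. Of all 13308 genes tested, 650 were higher and 707 lower in the reported fit. With array weights, where 12 members were higher, these were 1371 and 1485. Without T173I replicate 1, where 11 members were higher, they were 1308 and 1638. The replicate block gave 709 and 799. Lower members numbered 1 in the reported fit, 0 under the stricter filter (Casp12 was not tested there), 2 with repeated quantile normalization, median centring or array weights, 3 with the replicate block, and 0 to 3 with an array left out. Same-numbered arrays deviated together only weakly (correlations of 0.0477 to 0.0667), so the numbers were not taken as pairs. The median of the p53 list was 0.0893 to 0.2288 with an array left out. That of the Bcl2 and caspase list, -0.0038 in the reported fit, was 0.0549 under the stricter filter, 0.0541 with the mean of all probe sets, -0.0403 with array weights and -0.0215 to 0.031 with an array left out. Of 445 member values under 14 alternatives, 419 kept sign and side of the threshold, 5 passed it and 21 changed sign. Much of this was fixed in advance. The filter, prior and block alternatives leave a member's difference as it was, so its sign could not change there. The probe set mean could change only Bcl2 and Mcl1. No member was near the threshold in the reported fit (lowest limma adjusted p = 0.43). The count is therefore no measure of robustness. The sign changes fell in 10 members, with reported differences from -0.21 (Ddit4) to 0.09 (Plk2). Their cause was not tested. Array weights turned Plk2 to -0.0143, Bcl2l1 to -0.0403 and Casp8 to 0.0058, median centring Bbc3 to 0.0003 and Casp8 to 0.0161, and the probe set mean Mcl1 to 0.0591. With an array left out the ranges were -0.1382 to 0.0442 for Mdm4, -0.1942 to 0.2874 for Plk2, -0.3866 to 0.2246 for Sesn2, -0.5815 to 0.1849 for Ddit4, -0.1527 to 0.0937 for Bbc3, -0.2466 to 0.0503 for Bad, -0.0494 to 0.1071 for Bcl2l1, -0.0215 to 0.0066 for Casp8 and -0.2457 to 0.031 for Casp9.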
